A study of Mus musculus with 6 samples.

Results

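The genes described here encode hnRNPs and other RNA-binding regulators of splicing. They are the protein-coding genes whose symbols belong to the Hnrnp, numbered Rbm, Celf, Mbnl, Elavl, Nova, Ptbp, Rbfox, Esrp, Khdrbs and Qk families, with Rbm15 left out. This symbol rule took 85 of the 22046 protein-coding genes in a table of 54532 genes, and it used no measured value. Levels come from poly(A)-selected RNA sequencing of pancreatic islets, which hold the hormone cells of the pancreas, of mice aged 7 weeks. The tested animals were Ythdc1-βKO mice (bKO, n = 3), which lack the nuclear m6A reader YTHDC1 in their insulin-producing beta cells. They were set against mice with the Ythdc1flox/flox genotype (flox, n = 3), which carry the loxP-flanked gene without the deletion. The comparison asks how RNA levels in islets differ when beta cells lack this reader. The Cre driver is not given in the sources used here, and the labels call the replicates of each group independent biological samples. The material was whole islets, so every level averages beta cells with alpha, delta and PP cells, vessels, nerve and immune cells, and fewer cells of a type cannot be told apart from less RNA per cell.

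hnRNPs coat nascent transcripts in the nucleus and act on exon choice, 3′ end formation, export and decay. The other families bind short motifs near exons and favour inclusion or skipping according to where they bind, and several are known from neurons (NOVA, ELAVL, CELF, RBFOX), epithelia (ESRP) or muscle (MBNL, RBM20, RBM24). YTHDC1 binds N6-methyladenosine in nuclear RNA and is known to recruit splicing factors, while HNRNPC and HNRNPA2B1 have been described as proteins whose RNA binding is affected by the same mark. Beta cells are known to share many splicing regulators with neurons.

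The 6 libraries held 17770058, 17145960 and 17319353 reads in bKO islets and 17315724, 18240339 and 16863329 reads in flox islets, as recovered from the deposited FPKM (fragments per kilobase and per library scale factor). Ythdc1 itself was at 3.81, 3.79 and 3.87 FPKM in bKO islets and at 5.76, 6.46 and 6.18 FPKM in flox islets, a log2 fold change of -0.56 (limma with Benjamini-Hochberg adjustment, adjusted p = 0.00139). The genotype label names Ythdc1 in all 3 bKO animals, whereas the free-text descriptions of replicates 2 and 3 name other Ythdc genes. Insulin transcripts (Ins1 and Ins2) took 15.6% ± 0.512 of all reads in bKO islets and 22.5% ± 0.824 in flox islets (SD, n = 3 each). The islet hormones were abundant in all libraries: Gcg ran from 15762 to 18980 FPKM in bKO islets and from 17343 to 21260 FPKM in flox islets. Of the marker lists, limma called 5 of 6 beta cell markers lower (summed FPKM 130469 to 139545 in bKO islets, against 200602 to 222287 in flox islets), 4 of 6 endothelial markers higher (174 to 179 FPKM in bKO islets, against 135 to 157 in flox islets) and 1 of 5 macrophage markers lower (20.9 to 26.2 FPKM in bKO islets, against 38.5 to 40.3 in flox islets). In the other lists, Ppy of PP cells averaged 9330 ± 1340 FPKM in bKO islets and 4324 ± 784 FPKM in flox islets (SD, n = 3 each). It was called higher, as 1 of 3 delta and PP cell markers. The duct marker Spp1 averaged 73.1 ± 6.1 FPKM in bKO islets and 10.1 ± 1.86 FPKM in flox islets. It was called higher, as 1 of 3 tested duct markers (4 listed). The lymphocyte marker Cd79a averaged 1.27 ± 0.479 FPKM in bKO islets and 5.84 ± 1.58 FPKM in flox islets and was called lower. Of the 4 lymphocyte markers listed it alone was tested. Over the bKO and flox libraries Cd79b had 5 and 4 reads, Cd3e 7 and 0, and Ptprc 282 and 337. The alpha cell marker Irx2 (1 of 4 listed) and the mesenchymal marker Pdgfrb (1 of 5) were called higher as well. The part of any of these cells in the results below was not tested.

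Of the 85 members, 84 had at least 1 read and 72 passed the filter on low values, which asked for 0.5 FPKM in at least 3 libraries. 70 of the 72 reached that level in all 6 libraries, and Rbm11 and Rbm24 reached it in 5. The tested members had a median of 1050 to 1299 reads per library, and the lowest tested member had between 23 and 63. Together the members took 0.767% ± 0.0119 of reads in bKO islets and 0.693% ± 0.0215 in flox islets (SD, n = 3 each). In FPKM their summed level was 1215 ± 1.49 in bKO islets and 1251 ± 17.2 in flox islets. The share of reads was thus higher and the summed FPKM lower in bKO. The deposited FPKM are not scaled to the library totals, and the insulin share of those totals was lower in bKO, as given above.

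12 of the 72 tested members (16.7%) differed between bKO and flox islets at an adjusted p under 0.05, against a background of 20.3% of all 15717 genes tested. Hnrnpc, Hnrnph2, Hnrnpab, Hnrnpd, Hnrnpk, Hnrnpul2 and Hnrnpa2b1 fell (7 members, 9.72%, background 11.4%). Rbm24, Rbm3, Nova2, Rbm14 and Rbm33 rose (5 members, 6.94%, background 8.96%). Most changes were small on the log2(FPKM + 1) scale, which understates those of low genes such as Rbm24. 7 members (9.72%) had an absolute log2 fold change of 0.25 or more, against 29.1% of all genes tested, and 1 member, Rbm24, passed 0.5, against 9.40%. The median SE was 0.0600 over the tested members and 0.0834 over all genes tested, so all genes were also noisier. The median log2 fold change of the tested members was -0.01, with quartiles at -0.11 and 0.10, and that of all genes tested was -0.01.

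The scaling of the libraries decides the direction of the smallest of these changes. With each library scaled to its total reads, 28 members were called higher and 1, Hnrnpc, lower, against a background of 23.5% higher and 4.68% lower, and the median log2 fold change of all genes moved to 0.13 and that of the members to 0.15. With insulin genes left out before scaling to totals, 7 members were called higher (background 10.8%) and 3 lower (7.78%), and the all-gene median was 0.04. Quantile normalization called 5 higher (background 9.21%) and 2 lower (8.95%). With no filter, 3 members were called higher (background 3.77%) and 6 lower (4.46%, and 8.23% of all genes either way). The voom error model on recovered reads called 8 members higher (background 12.5%) and 13 lower (15.2%, and 27.7% either way). It kept all 12 and added Rbm4b, Rbm47 and Nova1 as higher and Hnrnph3, Hnrnpm, Hnrnpll, Ptbp1, Elavl4 and Rbm20 as lower. Leaving out a single library gave 2 higher and 3 lower calls in 5 of the 6 fits (backgrounds 5.04% to 7.19% and 6.74% to 8.42%), and 4 and 5 without flox replicate 3 (8.01% and 10.5%). The members' counts thus fell together with those of all genes. Hnrnpc was the member called in all 17 ways of processing that were run, and the called members Hnrnpa2b1, Hnrnpk and Hnrnpul2 turned to log2 fold changes of 0.05, 0.02 and 0.04 under scaling to totals. In all, 30 of the 72 tested members turned positive in that fit and 0 turned negative. Below, called and not called refer to the deposited scaling unless another fit is named.

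**Figure D1:**
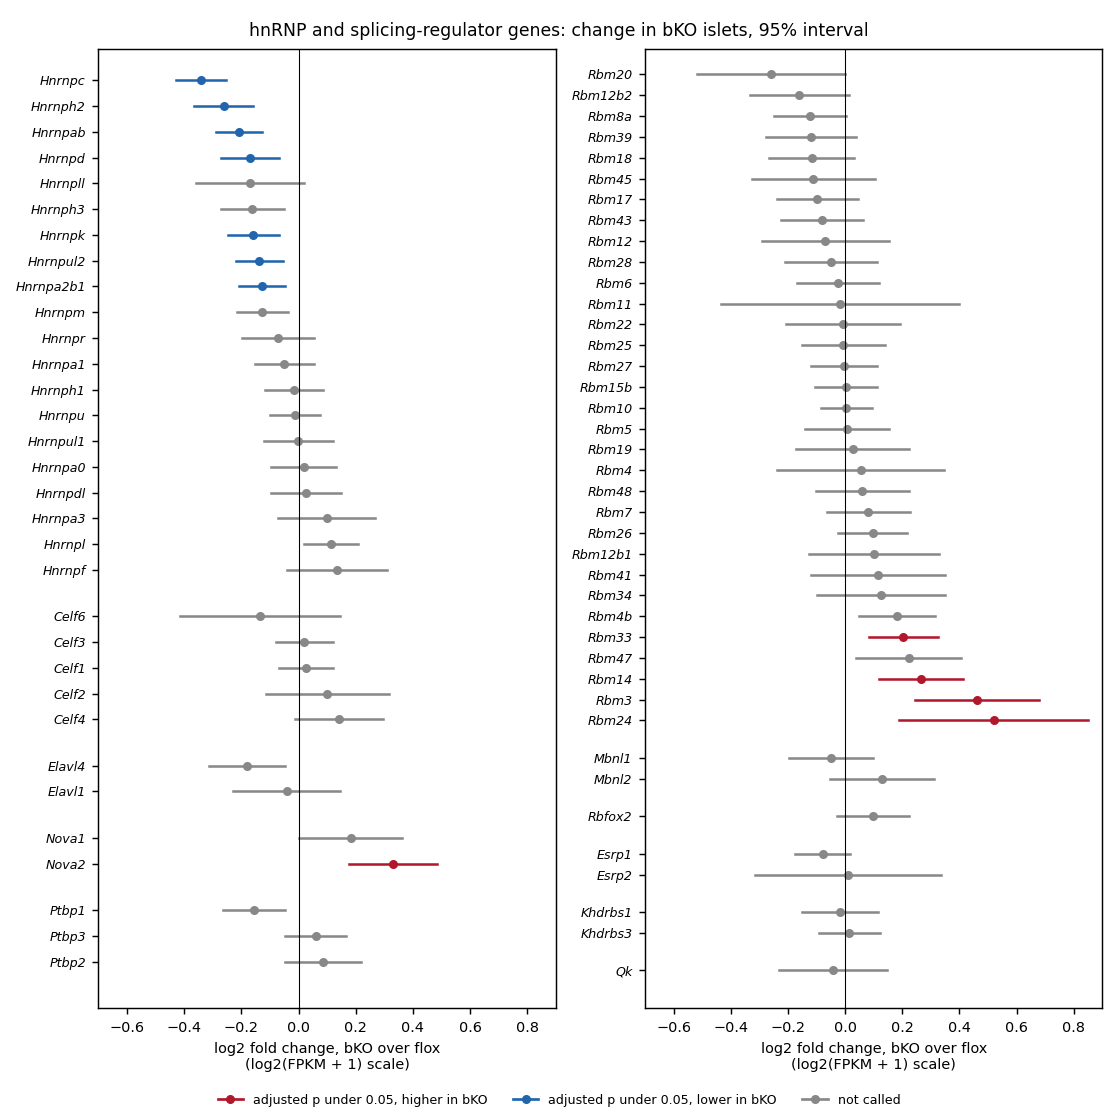
Log2 fold change, bKO over flox, on the log2(FPKM + 1) scale for the 72 tested members by family, with the 95% interval from limma. Red marks the 5 members called higher, blue the 7 called lower and grey the 60 not called. All points lie between -0.34 (Hnrnpc) and 0.52 (Rbm24), and the called Hnrnp genes lie left of 0, of which Hnrnpa2b1, Hnrnpk and Hnrnpul2 move right of it when libraries are scaled to their totals.

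In 27 of the 72 tested members (37.5%) the bKO and flox libraries did not overlap in FPKM, against 40.1% of all genes tested. bKO lay above flox in 11 of these (15.3%, background 18.5%) and below in 16 (22.2%, background 21.6%). Replicates were close for most members: the coefficient of variation of FPKM had a median of 3.95% over the tested members in bKO islets and 5.06% in flox islets. The highest values were 49.7% in bKO islets (Rbm11) and 25.4% in flox islets (Rbm4). For all 60 members that were not called, the 95% interval of the change stayed within 1.5-fold on the log2(FPKM + 1) scale, and for 47 it stayed within 1.25-fold. The 13 with wider intervals were Celf6, Esrp2, Hnrnpll, Nova1, Rbm4, Rbm11, Rbm12b1, Rbm12b2, Rbm20, Rbm34, Rbm41, Rbm45 and Rbm47. These bounds hold for the deposited scaling, and the FPKM ratios of low genes such as Rbm11 and Rbm20 can lie outside them.

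The Hnrnp family was the most abundant one, with 54.2% of the members' summed FPKM in bKO islets and 55.7% in flox islets. All 20 Hnrnp genes were tested, 7 were called lower (background 11.4%) and 0 higher (8.96%) by limma with the deposited scaling, and 8 were called higher (background 23.5%) and 1 lower (4.68%) with scaling to totals. With quantile normalization 1 was called higher (background 9.21%) and 2 lower (8.95%), 10 were negative and 10 positive, and the median was -0.01. At an unadjusted p under 0.05, 9 were lower and 1 was higher (Hnrnpl), and the share of all genes at that level was not counted. Voom called 10 lower (background 15.2%) and 0 higher (12.5%). Their summed level was 658 ± 2.17 FPKM in bKO islets and 697 ± 4.10 FPKM in flox islets (SD, n = 3 each). With the deposited scaling 15 of the 20 had a negative log2 fold change, with a median of -0.10, against 5 of 20 with scaling to totals, where the median became 0.06 with scaling to totals, below the all-gene median of 0.13 in the same fit. Counts of Hnrnp genes called lower ran from 3 to 5 when single libraries were left out (backgrounds 6.74% to 10.5%).

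Hnrnpc encodes HNRNPC, which binds uridine tracts and keeps cryptic exons out of mRNA in human cells. It was at 33.0, 32.7 and 32.4 FPKM in bKO islets, against 41.8, 40.5 and 43.0 FPKM in flox islets. All 3 bKO values lay below all 3 flox values, and the gap was several times the spread within a group. The means were 32.7 ± 0.293 FPKM in bKO islets and 41.8 ± 1.26 FPKM in flox islets (SD, n = 3 each), a ratio of 0.783. The log2 fold change was -0.34 (SE 0.0369, limma adjusted p = 0.00169), and it ran from -0.36 to -0.32 without single libraries and was -0.17 with scaling to totals. The gene lies on chromosome 14, 52073377 to 52104028, minus strand (GRCm38), and shares 0% of its exon bases with another annotated gene.

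Hnrnph2 and Hnrnph1 encode close paralogs that bind runs of guanine. Hnrnph2 was at 14.7, 14.1 and 14.0 FPKM in bKO islets, against 17.8, 16.7 and 17.3 FPKM in flox islets. The groups did not overlap, and the log2 fold change was -0.26 (SE 0.0433, limma adjusted p = 0.00779), a call lost with scaling to totals (-0.10). Hnrnph1, the more abundant paralog, was at 58.0, 56.7 and 60.0 FPKM in bKO islets, against 58.6, 56.8 and 61.3 FPKM in flox islets. These values overlapped, and Hnrnph1 was not called with the deposited scaling (log2 fold change -0.02) but was called higher with scaling to totals (0.16). The log2 ratio of Hnrnph2 to Hnrnph1 cannot be moved by a single scale factor per library, though quantile normalization can move it. From the deposited FPKM it was -1.98, -2.01 and -2.11 in bKO islets and -1.72, -1.76 and -1.82 in flox islets. The ratio was lower in bKO by 0.26 on the log2 scale, with no overlap. Paralog ratios, here and below, were not tested, and the share of gene pairs without overlap was not counted. Of single genes tested, 40.1% did not overlap between the groups. Among the pairs taken, only Elavl4 to Elavl1, Esrp2 to Esrp1 and Rbm5 to Rbm10 overlapped. Hnrnph3 averaged 18.1 ± 0.737 FPKM in bKO islets and 20.3 ± 0.602 FPKM in flox islets and missed the threshold (-0.16, limma adjusted p = 0.0505, and 0.01 with scaling to totals). Hnrnpf averaged 33.1 ± 2.21 FPKM in bKO islets and 30.1 ± 2.53 FPKM in flox islets, with overlap.

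Hnrnpab, an A/B-type hnRNP, was at 51.3, 49.8 and 51.0 FPKM in bKO islets, against 58.4, 59.7 and 57.9 FPKM in flox islets. The groups were separate, and the log2 fold change was -0.21 (SE 0.0334, limma adjusted p = 0.00709), not called with scaling to totals (-0.03) or with quantile normalization. 29.1% of its exon bases overlap Phykpl on the opposite strand, which averaged 2.34 FPKM in bKO islets and 1.68 FPKM in flox islets. Whether the reads were counted by strand is not given in the sources used here, so reads of the overlap cannot be told apart. Hnrnpd, whose product AUF1 binds AU-rich elements and is known for mRNA decay, was at 9.97, 9.75 and 9.48 FPKM in bKO islets, against 10.94, 11.01 and 11.30 FPKM in flox islets. Its log2 fold change was -0.17 (SE 0.0429, limma adjusted p = 0.0334), and leaving out any single library ended the call. It was -0.01 with scaling to totals, and each of the 3 other scalings ended the call too. The neighbouring paralog Hnrnpdl averaged 32.8 ± 1.65 FPKM in bKO islets and 32.1 ± 1.41 FPKM in flox islets and was not called.

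Hnrnpa2b1 was the most abundant member and encodes a protein of splicing and RNA transport that has been described as a nuclear m6A reader. It was at 73.5, 72.7 and 75.1 FPKM in bKO islets, against 79.4, 80.1 and 82.7 FPKM in flox islets. The groups did not overlap, yet the call was narrow: the log2 fold change was -0.13 (SE 0.0344, limma adjusted p = 0.041) and the call ended without any single library. With scaling to totals it was 0.05 and with quantile normalization 0.02. The other A-type genes were not called: Hnrnpa0 averaged 56.7 ± 2.24 FPKM in bKO islets and 56.0 ± 2.54 FPKM in flox islets, Hnrnpa1 averaged 45.3 ± 1.11 and 46.9 ± 2.04, and Hnrnpa3 averaged 15.2 ± 0.987 and 14.1 ± 1.13.

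Hnrnpk, the KH-domain hnRNP that binds cytosine-rich RNA, was at 52.0, 53.9 and 52.3 FPKM in bKO islets, against 58.8, 60.8 and 57.3 FPKM in flox islets. The log2 fold change was -0.16 (SE 0.0374, limma adjusted p = 0.0276) with no overlap, 0.02 with scaling to totals, and the call ended in 5 of the 6 fits without a single library. Hnrnpul2, an hnRNP U-like protein, was at 37.5, 36.9 and 37.0 FPKM in bKO islets, against 41.1, 41.8 and 39.9 FPKM in flox islets. Its log2 fold change was -0.14 (SE 0.0347, limma adjusted p = 0.0348), 0.04 with scaling to totals, and its call likewise ended in 5 of 6 such fits. For both genes, leaving out flox replicate 3 kept the call. Hnrnpul1 was at 16.1, 16.5 and 17.2 FPKM in bKO islets, against 17.6, 16.4 and 15.9 FPKM in flox islets, which overlapped, and the log2 ratio of Hnrnpul2 to Hnrnpul1 was lower in bKO by 0.14 with no overlap between groups. Hnrnpu, the scaffold-attachment member, averaged 34.1 ± 0.756 FPKM in bKO islets and 34.4 ± 0.707 FPKM in flox islets.

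Hnrnpl encodes a protein that binds CA repeats. It was at 39.7, 37.1 and 37.2 FPKM in bKO islets, against 35.2, 34.7 and 35.1 FPKM in flox islets. Here the bKO values were the higher ones, without overlap, but the gene was not called (log2 fold change 0.11, limma adjusted p = 0.0891). It was called higher under each other scaling, with a log2 fold change of 0.29 for totals, 0.17 when insulin genes were left out first and 0.21 for quantile normalization (limma adjusted p = 0.00502, 0.036 and 0.0181). Its paralog Hnrnpll was at 4.28, 4.77 and 4.38 FPKM in bKO islets, against 5.54, 4.57 and 5.39 FPKM in flox islets, with overlap. Taken as a ratio within each library, Hnrnpll to Hnrnpl was -3.21, -2.96 and -3.09 on the log2 scale in bKO islets and -2.67, -2.92 and -2.70 in flox islets. The pair thus stood 0.32 lower in bKO, although bKO replicate 2 and flox replicate 2 lay next to each other. Hnrnpm averaged 30.5 ± 0.735 FPKM in bKO islets and 33.4 ± 0.633 FPKM in flox islets (not called, limma adjusted p = 0.0545, and a log2 fold change of 0.05 with scaling to totals), and Hnrnpr averaged 4.25 ± 0.0922 and 4.52 ± 0.138.

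**Figure D2:**
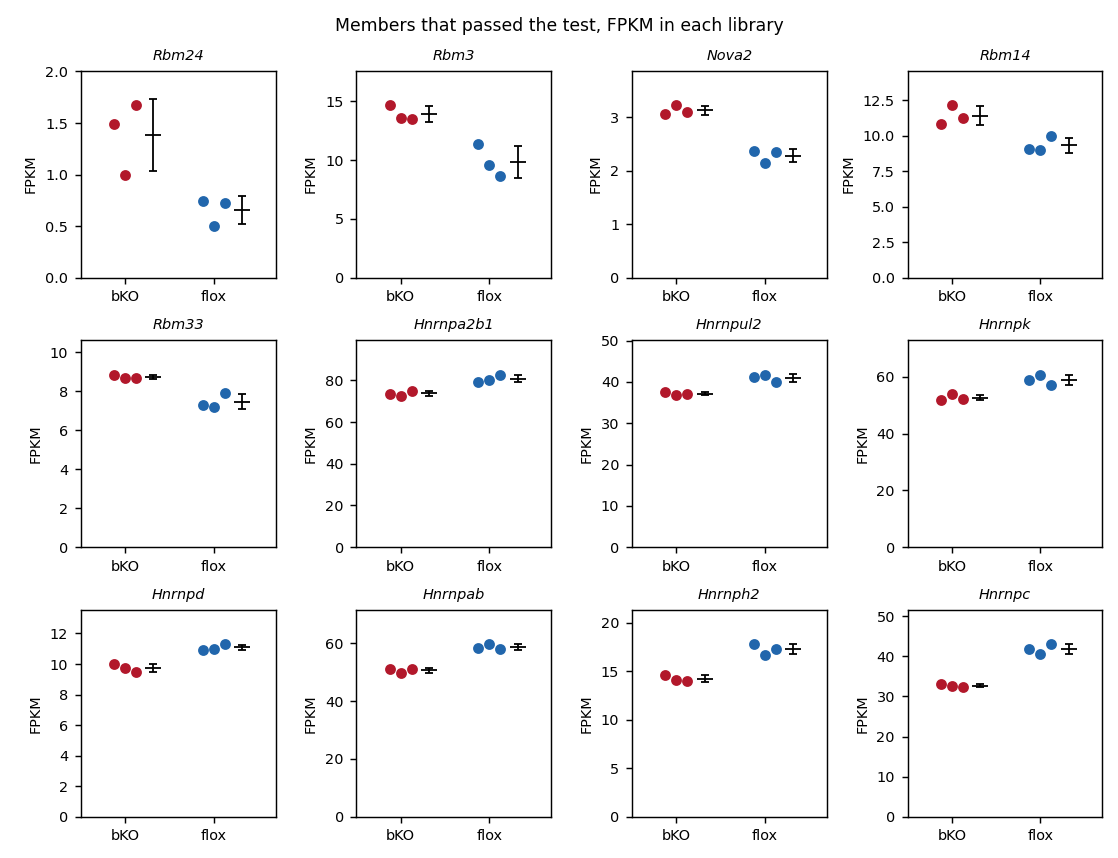
FPKM of the 12 called members in each library, bKO left and flox right, replicates 1 to 3 in order, with mean and SD (n = 3) beside the points and each axis starting at 0. In every panel the 3 bKO points lie on one side of the 3 flox points. Rbm24 shows the widest spread, from 0.996 to 1.67 FPKM in bKO islets, and the lower position of Hnrnpa2b1, Hnrnpk and Hnrnpul2 turns round when libraries are scaled to their totals.

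Promoter sequences are given for the members that were called in 12 or more of the 17 ways of processing and have a RefSeq entry, a level set after these counts were seen, so that genes that fell and genes that rose can be read side by side. They run from 250 bases before to 50 bases after the start (RefSeq, GRCm38.p6) and are printed 5′ to 3′ on the strand of the gene. Capitals mark CCAAT or its reverse ATTGG, and GGGCGG or its reverse CCGCCC, and in Rbm14 a CCAAT and an ATTGG overlap in 1 stretch. The windows are chr14:52103972-52104271 (minus) for Hnrnpc, chrX:134600929-134601228 (plus) for Hnrnph2, chr11:51606832-51607131 (minus) for Hnrnpab, chr7:18925638-18925937 (plus) for Nova2 and chr19:4811585-4811884 (minus) for Rbm14.
Hnrnpc: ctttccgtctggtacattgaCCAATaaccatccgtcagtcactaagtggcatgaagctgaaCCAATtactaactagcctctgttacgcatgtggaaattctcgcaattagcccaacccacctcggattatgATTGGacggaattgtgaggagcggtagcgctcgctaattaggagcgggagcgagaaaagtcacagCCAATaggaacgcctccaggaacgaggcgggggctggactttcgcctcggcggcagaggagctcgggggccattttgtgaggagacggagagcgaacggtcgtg
Hnrnph2: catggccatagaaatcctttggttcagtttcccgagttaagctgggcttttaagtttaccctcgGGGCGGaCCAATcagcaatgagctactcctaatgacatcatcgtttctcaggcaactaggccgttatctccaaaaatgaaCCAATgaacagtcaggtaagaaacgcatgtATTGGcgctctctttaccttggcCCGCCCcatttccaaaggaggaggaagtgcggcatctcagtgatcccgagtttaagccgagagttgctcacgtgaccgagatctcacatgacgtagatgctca
Hnrnpab: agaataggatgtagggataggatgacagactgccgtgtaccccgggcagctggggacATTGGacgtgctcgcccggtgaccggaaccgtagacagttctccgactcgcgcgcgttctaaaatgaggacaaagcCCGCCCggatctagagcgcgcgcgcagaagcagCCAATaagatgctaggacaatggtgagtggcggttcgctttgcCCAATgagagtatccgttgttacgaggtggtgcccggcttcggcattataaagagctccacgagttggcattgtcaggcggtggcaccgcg
Nova2: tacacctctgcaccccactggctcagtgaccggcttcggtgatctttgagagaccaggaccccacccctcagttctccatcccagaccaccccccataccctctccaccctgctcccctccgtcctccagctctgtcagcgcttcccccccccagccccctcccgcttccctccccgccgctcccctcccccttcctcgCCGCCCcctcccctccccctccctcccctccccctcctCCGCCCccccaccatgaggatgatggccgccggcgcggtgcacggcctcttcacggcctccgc
Rbm14: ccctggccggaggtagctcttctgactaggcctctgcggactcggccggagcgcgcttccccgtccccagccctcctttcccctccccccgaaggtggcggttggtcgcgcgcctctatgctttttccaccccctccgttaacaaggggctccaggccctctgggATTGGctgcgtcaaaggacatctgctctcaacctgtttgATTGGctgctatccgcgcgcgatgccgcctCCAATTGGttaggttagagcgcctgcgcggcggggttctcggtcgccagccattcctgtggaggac

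Both letter groups are short and common, so a match describes the letters only. The windows of Hnrnpc and Rbm14 hold the CCAAT box in 4 places each and no GC box, and those of Hnrnph2 and Hnrnpab hold it in 3 places each, beside 2 GC boxes in Hnrnph2 and 1 in Hnrnpab. In the Nova2 window, which is rich in cytosine, there are 2 GC boxes and no CCAAT box. A CCAAT box on either strand stands in at least 1 promoter of 5 of the 6 lower members that had an entry (Hnrnpd lacked it) and of 1 of 4 higher members (Rbm14, whereas Nova2, Rbm24 and Rbm33 lacked it). Counted the same way, it stands in 53.6% of the 56 tested members with an entry, in 72.2% of the 18 Hnrnp genes with one and in 42.7% of 9772 tested protein-coding genes. Over single promoters, 49.1% of the members' 106 promoters held it, against 37.4% of all 32851 promoters. GC boxes stood in 54.7% of the members' promoters, against 35.7% of all promoters and 62.5% of those of tested protein-coding genes. Counted by gene, a GC box stood in 35 of the 56 tested members, against 69.4% of tested protein-coding genes. 67 of the 85 members had an entry.

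Among the 38 Rbm genes, 32 were tested, 4 were called higher (background 8.96%) and 0 lower (11.4%) by limma, and the median log2 fold change was 0.00. At an unadjusted p under 0.05, 6 were higher and 1 was lower (Rbm20), without a count over all genes at that level. Voom called the same numbers (backgrounds 12.5% higher and 15.2% lower). Most encode nuclear proteins with an RNA recognition motif that act on splicing or RNA surveillance, and the number in the name does not mark common descent. Summed, they were at 289 ± 0.938 FPKM in bKO islets and 287 ± 8.06 FPKM in flox islets (SD, n = 3 each). Scaling to totals called 10 of 33 higher (background 23.5%) and 0 lower (4.68%).

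Rbm3 encodes a cold-inducible RNA-binding protein. It was at 14.7, 13.6 and 13.5 FPKM in bKO islets, against 11.3, 9.61 and 8.66 FPKM in flox islets. bKO lay above flox without overlap, at 13.9 ± 0.656 against 9.87 ± 1.35 FPKM (SD, n = 3 each), a ratio of 1.41. The gene lies on chromosome X, 8138975 to 8145880, minus strand (GRCm38). Its log2 fold change was 0.46 (SE 0.0913, limma adjusted p = 0.0145), and the call was lost without bKO replicate 1 (adjusted p = 0.0542) and held in the other 16 fits. Its close relative Cirbp, the other cold-inducible RNA-binding protein and no member here, went the other way: 25.0, 23.5 and 25.1 FPKM in bKO islets, against 34.1, 35.3 and 33.7 FPKM in flox islets. Cirbp had a log2 fold change of -0.47 (SE 0.0419, limma adjusted p = 0.000844). The antisense gene Rbm3os, which shares 2.0% of the exon bases of Rbm3, had 52 reads over the bKO libraries and 33 over the flox libraries, against 3650 and 2294 reads for Rbm3.

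Rbm24, known for splicing in heart and skeletal muscle, had the largest change and the lowest level of the called members. It was at 1.49, 0.996 and 1.67 FPKM in bKO islets, against 0.747, 0.499 and 0.725 FPKM in flox islets, from 271 reads over the bKO libraries and 113 over the flox libraries. The lowest bKO value was above the highest flox value. The ratio of means was 2.11 and the log2 fold change on the log2(FPKM + 1) scale, which understates it, was 0.52 (SE 0.139, limma adjusted p = 0.0408). Leaving out single libraries ended the call in 5 of 6 fits, all but the one without bKO replicate 2, and the change ran from 0.43 to 0.64. Quantile normalization and dropping the filter ended it too (limma adjusted p = 0.0793 and 0.0952). It passed the filter with all 3 bKO libraries and 2 flox libraries, and a filter of 1 FPKM removed it from the test. The gene lies on chromosome 13, 46418434 to 46431095, plus strand (GRCm38). Rbm20, the titin splicing factor of heart muscle, pointed the other way at 0.805, 0.902 and 0.645 FPKM in bKO islets, against 1.25, 0.940 and 1.22 FPKM in flox islets, and was not called (-0.26, limma adjusted p = 0.144).

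Rbm14, a coactivator-type protein also found in paraspeckles, was at 10.8, 12.1 and 11.3 FPKM in bKO islets, against 9.07, 8.96 and 9.94 FPKM in flox islets. The groups were separate, with a log2 fold change of 0.26 (SE 0.0616, limma adjusted p = 0.026), and the call ended without bKO replicate 2 or 3 or flox replicate 1 or 2, with an adjusted p of at most 0.081. Rbm14 lies in a cluster on chromosome 19 with Rbm4 and Rbm4b, and 21.0% of its exon bases overlap other annotated genes, among them Gm21992 on the same strand. Rbm4b averaged 4.66 ± 0.134 FPKM in bKO islets and 3.99 ± 0.141 FPKM in flox islets (0.18, limma adjusted p = 0.0615), and Rbm4 averaged 1.42 ± 0.148 and 1.34 ± 0.341. 60.5% of the exon bases of Rbm4 and 30.8% of those of Rbm4b overlap other genes, so the split of reads within the cluster is uncertain.

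Rbm33, linked to export of intronless mRNAs in human cells, was at 8.85, 8.67 and 8.68 FPKM in bKO islets, against 7.31, 7.18 and 7.89 FPKM in flox islets. bKO was higher without overlap, with a log2 fold change of 0.20 (SE 0.0509, limma adjusted p = 0.0333), and the fits without a single library lost the call except the one without flox replicate 3. Rbm47, known as a cofactor of cytidine deamination in epithelia, averaged 9.22 ± 0.625 FPKM in bKO islets and 7.77 ± 0.704 FPKM in flox islets and was not called (0.22, limma adjusted p = 0.0891).

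The 11 Rbm genes of the exon junction complex and the spliceosome gave 10 tested genes and 0 calls by limma (background 20.3%). There were also 0 at an unadjusted p under 0.05 and 0 by voom (background 27.7%). Scaling to totals called Rbm10 higher (0.18, limma adjusted p = 0.0242). Rbm39, the most abundant Rbm gene, was at 48.9, 46.1 and 48.5 FPKM in bKO islets, against 47.6, 52.0 and 56.8 FPKM in flox islets, which overlapped. Rbm10 was at 27.7, 26.8 and 26.5 FPKM in bKO islets, against 26.3, 27.5 and 26.9 FPKM in flox islets. Its relative Rbm5 was at 11.5, 10.3 and 10.8 FPKM in bKO islets, against 10.6, 10.2 and 11.6 FPKM in flox islets. Both act on exons of apoptosis genes, and their log2 ratio differed by 0.00 between the groups, with overlap. Rbm8a, which encodes the exon junction core protein Y14, averaged 11.8 ± 0.762 FPKM in bKO islets and 12.9 ± 0.111 FPKM in flox islets. The remaining tested genes of this list, Rbm6, Rbm17, Rbm22, Rbm25, Rbm41 and Rbm48, had log2 fold changes between -0.10 and 0.12.

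Rbm15b, which links the m6A methyltransferase complex to RNA, was at 11.4, 11.9 and 11.3 FPKM in bKO islets, against 11.8, 11.1 and 11.7 FPKM in flox islets. Those values overlapped, and with the deposited scaling the 95% interval of its log2 fold change ran from -0.11 to 0.11. With scaling to totals Rbm15b was called higher (0.16, limma adjusted p = 0.0333). Among the other Rbm genes, Rbm7 and Rbm26 of nuclear RNA surveillance had log2 fold changes of 0.08 and 0.10, and Rbm27 had one of 0.00. Rbm19, Rbm28 and Rbm34, known from ribosome biogenesis, were at 0.03, -0.05 and 0.13. Rbm11, Rbm12, Rbm12b1, Rbm12b2, Rbm18, Rbm43 and Rbm45 completed the tested Rbm genes, none was called, and they ran from -0.16 (Rbm12b2) to 0.10 (Rbm12b1).

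Of the 15 regulators known best from the nervous system, 9 were tested and 1, Nova2, was called, higher in bKO (background 8.96%). Nova2 encodes the neuronal splicing factor that binds YCAY motifs. It was at 3.06, 3.23 and 3.10 FPKM in bKO islets, against 2.37, 2.15 and 2.34 FPKM in flox islets. The groups were separate by more than the spread within either, with a ratio of means of 1.37 and a log2 fold change of 0.33 (SE 0.0648, limma adjusted p = 0.0142). The call ended without bKO replicate 2 and with the replicate number as a block (limma adjusted p = 0.0549 and 0.0578), and without single libraries the change ran from 0.30 to 0.35. 31.7% of its exon bases overlap Gm26821 on the opposite strand, which was listed at 0 in all 6 libraries. Nova1 averaged 1.92 ± 0.0595 FPKM in bKO islets and 1.57 ± 0.115 FPKM in flox islets, also without overlap, and was not called (0.18, limma adjusted p = 0.14).

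Elavl4, a neuronal member of the family that stabilises mRNAs with AU-rich elements, was at 5.72, 6.22 and 6.31 FPKM in bKO islets, against 6.79, 7.27 and 7.02 FPKM in flox islets. bKO was lower without overlap, and the gene was not called (-0.18, limma adjusted p = 0.0629). The ubiquitous Elavl1 was at 5.17, 5.06 and 5.09 FPKM in bKO islets, against 5.79, 4.63 and 5.51 FPKM in flox islets. These islets thus held the neuronal and the ubiquitous paralog at similar length-scaled levels, and the log2 ratio of Elavl4 to Elavl1 overlapped between the groups.

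Elavl2, Elavl3 and Rbfox1 were too low for the test, and all 3 had bKO values above flox values. Among the genes tested, 18.5% had all bKO values above all flox values, and the share among genes below the filter was not counted. Elavl2 and Elavl3 were picked after their values were seen. Elavl3 was at 0.121, 0.104 and 0.126 FPKM in bKO islets, against 0.0270, 0.0421 and 0.0179 FPKM in flox islets, from 45 and 10 reads. Elavl2 was at 0.382, 0.458 and 0.273 FPKM in bKO islets, against 0.120, 0.223 and 0.134 FPKM in flox islets, from 172 and 66 reads. Rbfox1 was at 0.166, 0.226 and 0.135 FPKM in bKO islets, against 0.0565, 0.0659 and 0.126 FPKM in flox islets, from 43 and 18 reads. When the filter was dropped, none of these was called (limma adjusted p = 0.067 for Elavl3, 0.114 for Elavl2 and 0.225 for Rbfox1). In that fit the other untested genes of this list, Celf5, Khdrbs2 and Rbfox3, had log2 fold changes of 0.08, 0.00 and 0.06 and were not called.

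Several markers of nerve and glia also rose in bKO islets. 4 of the 5 tested neuron markers (Nefm, Prph, Stmn2 and Tubb3, of 6 listed) were called higher, and the list summed to 48.7 to 52.5 FPKM in bKO islets and 36.3 to 39.6 FPKM in flox islets, with Nefl at 0 in all 3 flox libraries. 3 of the 5 tested Schwann and glia markers (Cdh19, Foxd3 and Ngfr, of 6 listed) were called higher, and that list summed to 5.56 to 7.02 FPKM in bKO islets and 2.80 to 4.68 FPKM in flox islets. The part of these cell types in the values of Nova2, Elavl2, Elavl3 and Rbfox1 was not tested.

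Celf3, an ELAV-like neuronal splicing factor, was the most abundant Celf gene at 58.3, 55.4 and 55.1 FPKM in bKO islets, against 55.8, 53.4 and 57.2 FPKM in flox islets. The values overlapped, and with the deposited scaling the 95% interval of the log2 fold change ran from -0.08 to 0.12. With scaling to totals Celf3 was called higher (0.19, limma adjusted p = 0.0246). The widely expressed Celf1 was lower in level, at 20.3, 20.6 and 20.7 FPKM in bKO islets, against 19.5, 20.1 and 20.8 FPKM in flox islets. Celf2 was at 0.976, 0.963 and 1.14 FPKM in bKO islets, against 0.861, 0.870 and 0.932 FPKM in flox islets, which did not overlap, and the log2 ratio of Celf1 to Celf2 was lower in bKO by 0.18 without overlap. Celf4 and Celf6 had log2 fold changes of 0.14 and -0.14 and were not called. With scaling to totals Celf1 and Celf4 were called higher (0.19 and 0.29, limma adjusted p = 0.0199 and 0.0168). Celf5 stayed below the filter with 130 reads over the bKO libraries and 89 over the flox libraries.

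Rbfox2 carried nearly all Rbfox signal, at 14.2, 13.1 and 13.5 FPKM in bKO islets, against 13.3, 12.0 and 12.7 FPKM in flox islets, with overlap. RBFOX proteins bind UGCAUG next to alternative exons. The log2 ratio of Rbfox2 to Rbfox1 was 6.42, 5.86 and 6.64 in bKO islets and 7.88, 7.51 and 6.65 in flox islets, so the highest bKO value stood just under the lowest flox value, and the ratio rests on the few reads of Rbfox1. Rbfox3 had 161 reads over the bKO libraries and 126 over the flox libraries and was not tested.

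PTBP1 is the polypyrimidine tract-binding protein that represses neuronal exons, and PTBP2 is its neuronal paralog. Ptbp1 was at 30.3, 30.4 and 28.5 FPKM in bKO islets, against 34.2, 31.8 and 33.8 FPKM in flox islets. Ptbp2 was at 4.46, 4.35 and 4.56 FPKM in bKO islets, against 4.01, 4.09 and 4.34 FPKM in flox islets. Ptbp1 was lower and Ptbp2 higher in bKO, both without overlap in FPKM, and neither was called (limma adjusted p = 0.0556 and 0.331). With scaling to totals the log2 fold change of Ptbp1 was 0.02, and Ptbp2 was called higher (0.23). The log2 ratio of Ptbp2 to Ptbp1 within each library was -2.77, -2.81 and -2.64 in bKO islets and -3.09, -2.96 and -2.96 in flox islets, higher in bKO by 0.27 without overlap. Ptbp3 was the most abundant of the family at 35.9, 38.9 and 39.4 FPKM in bKO islets, against 36.7, 35.7 and 36.9 FPKM in flox islets, and its log2 ratio to Ptbp1 was higher in bKO by 0.22, also without overlap. 20.7% of the exon bases of Ptbp1 overlap genes on the opposite strand.

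**Figure D3:**
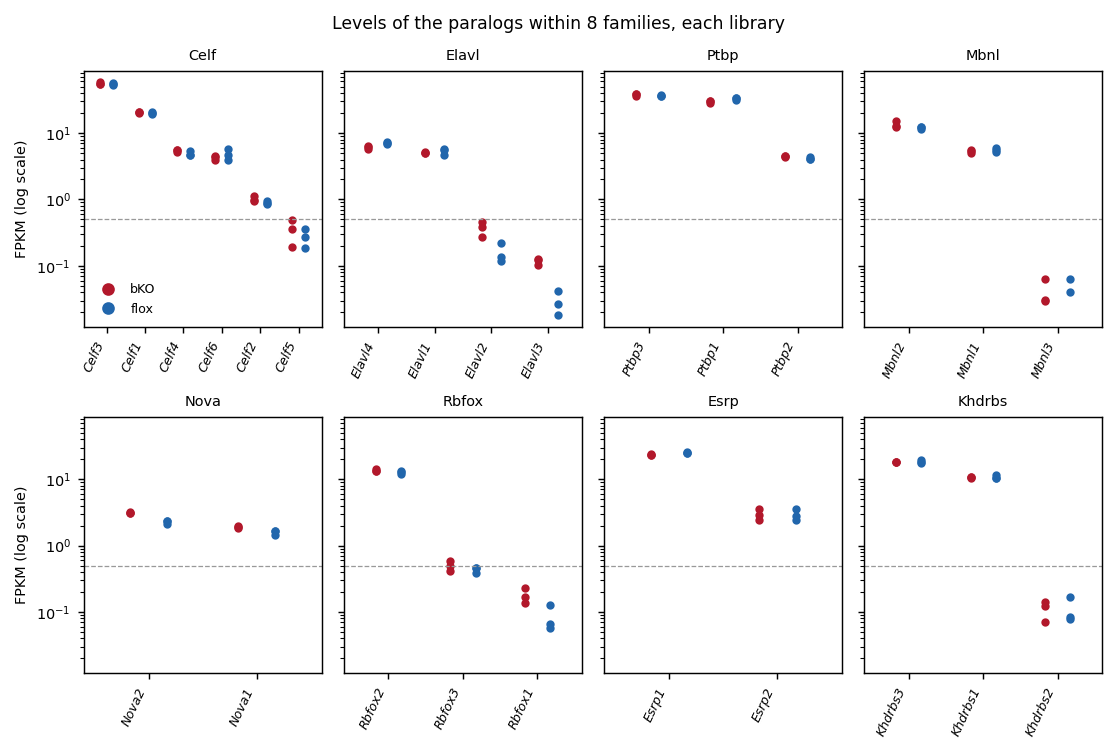
FPKM on a log axis of the paralogs in 8 families, 1 point per library, bKO left and flox right within each gene, with the filter level of 0.5 FPKM as a dashed line. Celf3, Ptbp3, Mbnl2, Rbfox2, Esrp1 and Khdrbs3 lead their families in both groups, and Elavl2, Elavl3 and Rbfox1 lie under the line with bKO above flox. A value of 0 cannot be drawn, which leaves out Mbnl3 in flox replicate 1.

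Among the epithelial regulators, Esrp1, which sets epithelial exon choice, was at 23.2, 24.1 and 23.4 FPKM in bKO islets, against 24.5, 24.4 and 25.9 FPKM in flox islets. The groups did not overlap, the log2 fold change was -0.08 (0.09 with scaling to totals) and the gene was not called (limma adjusted p = 0.226). Its paralog Esrp2 was at 2.45, 2.90 and 3.51 FPKM in bKO islets, against 3.56, 2.78 and 2.45 FPKM in flox islets, with overlap, and the log2 ratio of the pair overlapped as well.

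Muscleblind proteins favour adult splicing patterns and are the factors trapped by CUG repeats in myotonic dystrophy. Mbnl2 was at 12.5, 12.9 and 15.2 FPKM in bKO islets, against 12.5, 11.7 and 12.5 FPKM in flox islets. Mbnl1 was at 5.09, 5.33 and 5.65 FPKM in bKO islets, against 5.60, 5.26 and 5.88 FPKM in flox islets. Each gene overlapped between the groups. With scaling to totals Mbnl2 was called higher (0.29, limma adjusted p = 0.0311), and with the deposited scaling neither gene was called. Their log2 ratio was 1.30, 1.27 and 1.43 in bKO islets and 1.16, 1.15 and 1.09 in flox islets. It was higher in bKO by 0.20 without overlap, and this difference was not tested. Mbnl3 had 20 reads over the bKO libraries and 15 over the flox libraries.

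Of the STAR-type proteins, limma called 0 of the 3 tested genes (background 20.3%). There were also 0 with an unadjusted p under 0.05 and 0 with a voom call (background 27.7%). Scaling to totals called Khdrbs3 higher (0.18, limma adjusted p = 0.016). Khdrbs3, which encodes the neuronal splicing factor SLM2, was at 18.3, 18.4 and 18.4 FPKM in bKO islets, against 19.2, 18.0 and 17.5 FPKM in flox islets. Khdrbs1 (SAM68) averaged 10.6 ± 0.221 FPKM in bKO islets and 10.8 ± 0.714 FPKM in flox islets, and Khdrbs2 had 64 and 56 reads and was not tested. Qk, known from myelinating glia, was at 2.44, 2.30 and 2.58 FPKM in bKO islets, against 2.54, 2.30 and 2.80 FPKM in flox islets. Both groups overlapped for Khdrbs3, Khdrbs1 and Qk.

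Of the 13 members that were not tested, the Celf, Elavl, Khdrbs, Mbnl and Rbfox genes are given above, and the rest were Rbm genes. Rbm38, a p53 target, was at 0.490, 0.308 and 0.905 FPKM in bKO islets, against 0.952, 0.405 and 0.495 FPKM in flox islets. Rbm42 had 16 reads over the bKO libraries and 1 over the flox libraries, but 75.4% of its exon bases lie under Gm21982 on the same strand, and its level is uncertain. Without the filter it was not called (limma adjusted p = 0.0538). Rbm44 (6 and 9 reads), Rbm46 (7 and 4) and Rbm8a2 (6 and 1) were near 0 in bKO and flox islets, and Rbm31y had 0 reads in all 6 libraries, which allows up to 3 reads per group at this depth.

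The same test over 71 other splicing regulators outside these families called 15 with the deposited scaling (21.1%, background 20.3%). Of these, 5 were higher (background 8.96%) and 10 lower (11.4%). Under scaling to totals 28 were called higher (background 23.5%) and 2 lower (4.68%). The largest rises were in Son, a speckle protein, at 43.9 ± 1.56 FPKM in bKO islets and 34.5 ± 1.58 FPKM in flox islets (0.34, limma adjusted p = 0.0045), Msi2 (0.33) and Ddx17 (0.28). The largest falls were in Cirbp, in the SR protein gene Srsf7 (-0.34), at 57.5 ± 1.71 FPKM in bKO islets and 72.9 ± 1.54 FPKM in flox islets, and in Ybx1 (-0.26). The median log2 fold change was 0.01 over the 71 genes and -0.01 over the tested members, beside -0.01 over all genes tested.

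**Figure D4:**
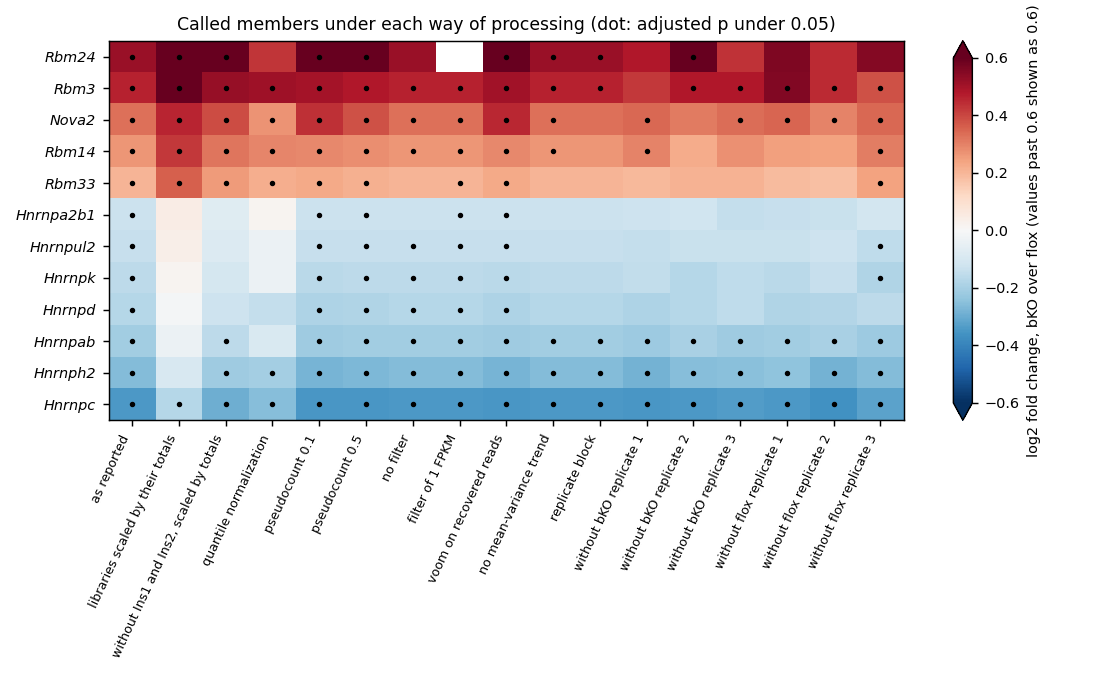
Log2 fold change, bKO over flox, of the 12 called members in each of the 17 ways of processing, red for higher and blue for lower in bKO, with a dot where the adjusted p is under 0.05 and a blank where Rbm24 was removed by the filter of 1 FPKM. Hnrnpc carries a dot in all 17, Rbm3 and Hnrnph2 in 16, Nova2 and Hnrnpab in 15. Hnrnpa2b1, Hnrnpk and Hnrnpul2 are red under scaling to totals, and Hnrnpa2b1 also under quantile normalization.

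Annotation features that the symbol rule did not use were counted in GENCODE vM21. 30 of the 72 tested members (41.7%) have an annotated transcript of the nonsense-mediated decay type, among them 10 of the 20 Hnrnp genes, against 28.2% of tested protein-coding genes. Such transcripts are known in this gene class from exons that carry early stop codons. A retained-intron transcript is annotated for 50 members (69.4%), against 57.7%. Of the 7 lower members, 3 have a decay-type transcript (Hnrnpa2b1, Hnrnpd and Hnrnpk), and of the 5 higher members 1 has one (Rbm3). The gene-level FPKM sum all transcripts, so the values above do not tell productive from decay-type isoforms. The letters GGACT, a frequent core of the m6A motif, were counted on the sense strand of the longest coding transcript, with a median of 0.792 per kilobase over the tested members and 1.05 over tested protein-coding genes. Rbm24 had 2.27 per kilobase, Hnrnpc 0.702 and Hnrnpab and Hnrnpa2b1 0, and a match does not show a methylated site. The Hnrnpa2b1 transcript counted has 1728 bases, against 6584 annotated exon bases over all its transcripts, and the other exon bases were not searched.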

How the data were processed

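Poly(A) RNA from islets of 3 bKO and 3 flox mice was sequenced in paired-end mode. Per the labels' protocols, HISAT2 2.0.5 placed the reads on GRCm38, and featureCounts 1.5.0-p3 assigned them to genes. The submitters' processing notes also list CASAVA and DESeq2 1.20.0, without a role. The sources used here do not give the strand setting, the treatment of multi-mapping reads or the annotation release. The authors deposited FPKM with gene lengths. Each value times its gene length was a whole multiple of 1 step per library (100% of values within 0.01 read), which gave the reads and totals, and 0 columns of other samples were present. The steps do not follow the library totals, so the authors' scaling is another one. Intervals and limits from reads cover counting error only.

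Groups come from the titles and genotype labels. A linear model with bKO against flox and a mean-variance trend was run in limma 3.58.1 (R 4.3.3) on log2(FPKM + 1). It took the 15717 genes that reached 0.5 FPKM in 3 or more libraries, and Benjamini-Hochberg adjustment over all of them set the calls at 0.05. Fold changes on this scale understate those of low genes. The fit was tested on simulated data. Alternatives were scaling to totals, the same without insulin genes, quantile normalization, pseudocounts of 0.1 and 0.5, no filter, a filter of 1 FPKM, voom on recovered reads, no trend, a replicate block and leaving out each library. Tests made for counts alone were not used. Overlaps and transcript types come from GENCODE vM21 (83 of 85 members with the same start and end) and promoters from RefSeq. Python 3.11.15, pandas 2.3.3, numpy 2.4.6, scipy 1.17.1 and matplotlib 3.10.9 served the rest.

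Values per library are given for called members, the most abundant gene of each family, the paralog pairs, Rbm15b and Rbm38, and for Rbm20, Elavl2, Elavl3 and Cirbp, which were added after their values were seen, and of the other regulators the 3 largest called changes each way are named. Members, lists and this rule were chosen with earlier results of these data known.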

Additional observations from a re-analysis of the deposited data

How the results depend on the processing

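The members' 5 higher and 7 lower calls depended on the processing. Higher calls numbered 28 with scaling to totals (background 23.5%), 3 with no filter (3.77%) and 8 with voom (12.5%). Lower calls numbered 1 with scaling to totals (background 4.68%), 3 when insulin genes were left out before it (7.78%) and 2 with quantile normalization (8.95%). Voom gave 13 lower calls (15.2%), and the fit without the mean-variance trend gave 3 (background 9.17%). Without single libraries, the members had 2 to 4 higher and 3 to 5 lower calls, against 5.04% to 8.01% and 6.74% to 10.5% of all genes. The 71 other regulators had 28, 8, 12 and 12 higher calls with scaling to totals, without insulin genes, with quantile normalization and with voom. The backgrounds of these fits were 23.5%, 10.8%, 9.21% and 12.5% higher. The other regulators' lower calls were 2, 4 and 3 with the first 3 of these fits (backgrounds 4.68%, 7.78% and 8.95%) and 5 without the trend (9.17%). Without single libraries they had 4 to 6 higher and 3 to 7 lower calls, beside the same shares of all genes as given for the members. With the replicate number as a block (replicate block), members had 2 higher (background 5.89%) and 3 lower calls (7.33%) and other regulators 6 lower. Same-numbered libraries did not deviate together (correlations of -0.05, -0.01 and -0.07), so the numbers are not taken as pairs. Under scaling to totals, 30 of the 72 tested members turned to a positive log2 fold change, 10 of them Hnrnp genes. Of the genes called in one or both fits, those that turned were Hnrnpa2b1 (0.0464), Hnrnpk (0.0160), Hnrnpul2 (0.0360), Hnrnph1 (0.16), Hnrnpu (0.16), Hnrnpul1 (0.17) and the other regulator Luc7l (0.00691). Under quantile normalization 8 members turned positive, 5 of them Hnrnp genes with Hnrnpa2b1 (0.0175) among them, and 3 turned negative, while leaving out insulin genes before scaling turned 11 positive. The share of higher among all calls was 83.4% with scaling to totals and 44.1% with the deposited scaling, and insulin reads differ between the groups, so the scaling that shows absolute change cannot be told from these data. No pseudocount changed a member's call. Members under 0.5 FPKM rest on 172 or fewer reads per group, which limits what they can show. The cause of these changes was not tested.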

Other observations

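Pseudogene rows that carry member names were low. Rbm3-ps had 41 reads over the bKO libraries and 34 over the flox libraries, Rbm6-ps1 had 9 and 26, and Hnrnpa1l2-ps had 0 and 1, while Rbm6-ps2 had 2 and 0. The sources used here do not describe how reads that match a gene and its processed copy were counted.

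Several members share exon bases with genes whose own levels differed between the groups. Ndufb11, which overlaps 3.15% of the exon bases of Rbm10 on the opposite strand, averaged 82.3 FPKM in bKO islets and 106 FPKM in flox islets, while Rbm10 did not differ beyond its spread. Ccl25, opposite 1.97% of the exon bases of Elavl1, averaged 1.69 FPKM in bKO islets and 0.780 FPKM in flox islets. E130317F20Rik, opposite 6.22% of the exon bases of Ptbp1, averaged 1.71 FPKM in bKO islets and 2.30 FPKM in flox islets. What such overlaps add to the members' own values was not tested.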
